A study of Mus musculus with 8 samples.

Results

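The set of 10 genes of the Nrf2 and glutathione defence was taken by name from the gene count table of MB21 cells: Nfe2l2, Keap1, Gclc, Gclm, Gsr, Nqo1, Hmox1, Txnrd1, Srxn1 and Me1. All 10 were found among the 55416 gene identifiers of the table, and 9 of the 10 passed the filter on low counts, which kept 15133 genes. The members were chosen by their roles and not by a measured value of this comparison, although earlier results of the same libraries were known. MB21 is a mouse medulloblastoma cell line, labelled as a ptch mutant in both groups, that was cultured without attachment. One group of 4 libraries received 10 uM DS-1-38, a compound the series describes as derived from benzarone, for 5 days, and the other group of 4 received the DMSO vehicle for the same time. The groups are called DS38 and DMSO here. All libraries came from this single cell line, and no label says that those of a group were separate cultures, so p-values measure the spread between these libraries, which may be technical.

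Nrf2, the product of Nfe2l2, is a transcription factor that switches on genes against oxidants and reactive chemicals. In unstressed cells Keap1 holds Nrf2 and presents it to a Cul3 ubiquitin ligase for destruction, and oxidants or electrophiles that modify Keap1 let Nrf2 accumulate. Nrf2 then pairs with a small Maf protein and binds a short DNA motif, the antioxidant response element. Because this control acts largely on the Nrf2 protein, the Nfe2l2 transcript is an indirect measure of the pathway, and the transcripts of its targets are the usual readout.

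The core of the antioxidant response element, TGACNNNGC, was searched on both strands of the RefSeq promoter windows (build GRCm38.p6), each reaching from 250 bases before to 50 bases after a gene's start. The table held 10 windows for 7 of the 10 members. Of these windows 5 had a match, and so did 5 of those 7 members: Nfe2l2, Gclm, Txnrd1, Srxn1 and Me1. Of all 32851 RefSeq windows 12.4% held a match, as did 14% of genes. The matches are shown because this is the motif that Nrf2 binds. A match does not make a gene a target, and elements further than 250 bases before the start were not searched. Capitals mark the matched letters, which read as GCNNNGTCA where the match lies on the strand opposite the gene, and the stretches were kept short beyond the start site.

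Nfe2l2, chr2:75704865-75704913, minus strand, match beginning 240 bases before the start: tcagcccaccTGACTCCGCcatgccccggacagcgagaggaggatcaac
Gclm, chr3:122245393-122245461, plus strand, opposite-strand match 134 bases before the start: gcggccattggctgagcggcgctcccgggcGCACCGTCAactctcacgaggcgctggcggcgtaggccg
Txnrd1, chr10:82859084-82859152, plus strand, opposite-strand match 92 bases before the second of 3 listed starts: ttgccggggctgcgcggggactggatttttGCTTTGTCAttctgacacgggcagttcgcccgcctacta
Me1, chr9:86695912-86695950, minus strand, match beginning 6 bases before the start: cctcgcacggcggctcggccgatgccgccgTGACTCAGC
Srxn1, chr2:152105542-152105570, plus strand, opposite-strand match 28 bases after the start: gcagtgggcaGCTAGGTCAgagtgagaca

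These letters were not in the single windows of Keap1 and Nqo1, and a match is a description of sequence, not of binding. Of the 5 genes with a match, Nfe2l2, Gclm and Me1 rose with the compound and Txnrd1 and Srxn1 did not pass the test, as given below. Of 101 genes of the wider pathway lists with a window, 19 (18.8%) held a match.

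The libraries held 17142397 to 28476019 counts. Levels are given as CPM, counts per 1000000 counts of a library adjusted by its TMM factor, and genes were tested with edgeR's quasi-likelihood test at a Benjamini-Hochberg adjusted p under 0.05 over all 15133 genes. In this bulk RNA, fewer cells expressing a gene and less RNA of it per cell cannot be told apart. The Hedgehog readout Gli1 was lower in DS38 (90.9 ± 3.60 CPM against 137 ± 3.54 in DMSO, SD, n = 4 each). Mitochondrially encoded genes took 0.785% to 1.04% of counts in DMSO and 1.17% to 1.36% in DS38. The median log2 fold change was -0.13 in genes shorter than 2000 bases and 0.06 in genes of 8000 bases or more. The part of these differences in the results on the members was not tested, apart from a fit that removes the trend with gene length. All 7 granule neuron progenitor markers were expressed, at a summed 1426 to 1498 CPM in DMSO and 1681 to 1736 CPM in DS38, with no overlap. Of these, 5 were raised, against 18.8% of all tested genes, with Barhl1 the most (log2 fold change 0.71, edgeR adjusted p = 2.76e-08). Zic1 alone was lowered (-0.16, adjusted p = 0.00738), against 20.7% of all tested genes. Summed markers of microglia and macrophages lay at or below 0.138 CPM in every library, with Cx3cr1, C1qa and C1qb at 0. Oligodendrocyte markers summed to 8.74 to 11.4 CPM over the 8 libraries, and Cnp was lowered (-0.33, adjusted p = 0.0209). Endothelial markers summed to 0.883 to 2.61 CPM in DMSO and 2.24 to 2.54 CPM in DS38, with Cldn5 at 0. Tek was raised (log2 fold change 1.34, edgeR adjusted p = 0.0295) on 25 counts in DMSO and 68 in DS38. Its groups overlapped, as DMSO replicate 3 (0.815 CPM) lay within the DS38 range. Cdh5 did not pass (0.09, adjusted p = 0.816), and Pecam1 and Kdr were under the filter. Fibroblast markers summed to 0.522 to 1.04 CPM in DMSO and 1.46 to 1.90 CPM in DS38, with no overlap. This list held only 68 counts in DMSO and 148 in DS38, most of them from Col1a1 (19 and 71) and Lum (42 and 71). Col1a1 was raised (1.81, adjusted p = 0.0016) and Lum did not pass (0.70, adjusted p = 0.0719). Col1a2 (2 and 1 counts), Dcn (3 and 5) and Pdgfrb (2 and 0) were under the filter. The astrocyte list summed to 120 to 125 CPM in DMSO and 113 to 115 CPM in DS38. Nearly all of it was Slc1a3, which was lowered (-0.13, adjusted p = 0.00831), while Gfap was raised (0.75, adjusted p = 0.00421) from 1.83 to 3.07 CPM and Aqp4 was under the filter. The part of these marker differences in the results on the members was not tested.

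The response of the members to DS-1-38 was small and did not go one way. Me1, Hmox1, Nfe2l2 and Gclm rose, Gsr fell, and Keap1, Gclc, Txnrd1 and Srxn1 did not pass the test. The 5 changes were between 9.18% and 32.1% in size. Thus 4 of 9 tested members were raised, where 18.8% of all tested genes were, and 1 of 9 was lowered, where 20.7% were. Without DS38 replicate 2 only 1 member was raised (Me1), and 2 were without DMSO replicate 3, DMSO replicate 4 or DS38 replicate 1. In 1 member, Me1, every DS38 library lay above every DMSO library, as in 17.3% of all tested genes, and in 1, Gsr, every DS38 library lay below, as in 18.8%. The median log2 fold change of the 9 was 0.11, against -0.01 for all tested genes.

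**Figure D1:**
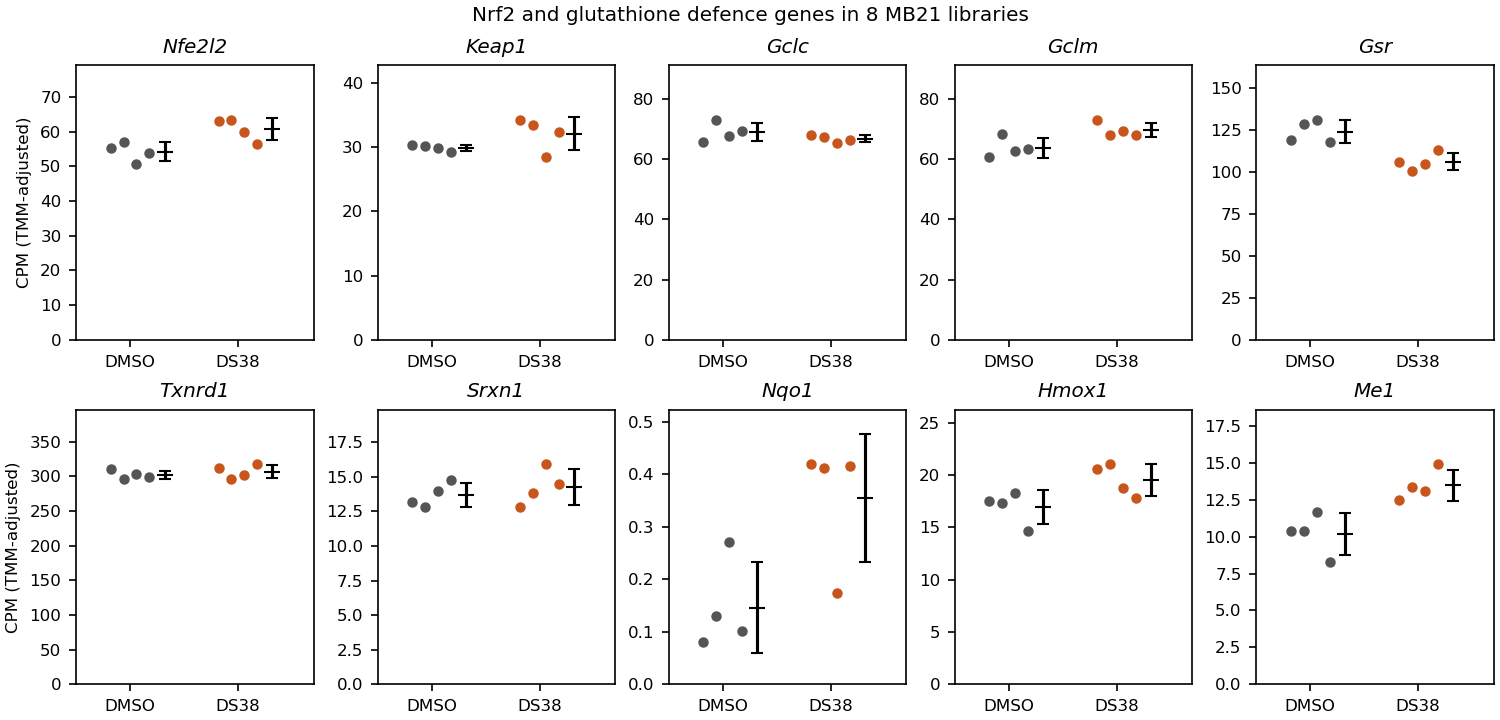
Level of each of the 10 members in CPM (vertical axes, each from 0) in the 4 DMSO (grey) and 4 DS38 (orange) libraries, with the group mean and SD beside the points. The groups are apart for Gsr and Me1 and overlap for the other members, and Nqo1 lies below 0.5 CPM throughout.

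Per length, the members fell into an order that spanned a wide range. In DMSO, Gsr stood at 45.1 ± 2.48 CPM per kilobase and Txnrd1 at 42.6 ± 0.825, followed by Gclc (18.3 ± 0.804), Nfe2l2 (14.3 ± 0.708), Gclm (10.1 ± 0.509) and Hmox1 (9.68 ± 0.911). Keap1 (6.37 ± 0.0944), Srxn1 (4.86 ± 0.311), Me1 (2.65 ± 0.369) and Nqo1 (0.0941 ± 0.0556) were lower (SD, n = 4 for each). Gsr and Txnrd1 overlapped in their DMSO values, as did Gclm and Hmox1, and all other neighbours in this order were apart. With DS-1-38 the first place changed: Txnrd1 stood at 43.3 ± 1.32 CPM per kilobase and Gsr at 38.6 ± 1.87. These were narrowly apart, with the lowest Txnrd1 value at 41.8 and the highest Gsr value at 41.2. The order of different genes rests on the deposited gene lengths, which may differ from those of the transcripts expressed, and the SDs do not cover this.

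Among the regulators, the transcript of Nrf2 itself rose a little. Nfe2l2 (ENSMUSG00000015839) was measured at 55.3, 57.0, 50.7 and 53.8 CPM in DMSO replicates 1 to 4 and at 63.1, 63.3, 60.0 and 56.5 CPM in DS38 replicates 1 to 4. DS38 replicate 4 lay just below the highest DMSO library and the other DS38 libraries above all of them. The log2 fold change was 0.16 ± 0.049 SE, a rise of 12.1% (edgeR adjusted p = 0.0129). The call was lost without DMSO replicate 3 (adjusted p = 0.0532) or DS38 replicate 2 (0.0558), in a range of 0.00168 to 0.0558 over 19 alternative settings.

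Keap1 (ENSMUSG00000003308), the sensor that marks Nrf2 for destruction, was steady in DMSO at 30.3, 30.2, 29.8 and 29.3 CPM and spread more in DS38, at 34.2, 33.4, 28.5 and 32.4 CPM. DS38 replicate 3 lay below every DMSO library and the other 3 above them. The log2 difference of 0.11 did not pass (edgeR adjusted p = 0.154), with a 95% interval from -1.03% to 17.2%. It passed without DS38 replicate 3 (adjusted p = 0.0294) and under plain scaling to library totals (0.031), over a range of 0.0294 to 0.361. Exons of Keap1 overlap those of Gm16754 on the other strand, which had 67 counts in all 8 libraries together.

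Glutathione synthesis begins with glutamate-cysteine ligase, whose catalytic subunit is encoded by Gclc and whose modifier subunit, which makes the enzyme more efficient, by Gclm. Gclc (ENSMUSG00000032350) stood at 65.8, 72.9, 67.5 and 69.4 CPM in DMSO and at 67.9, 67.3, 65.3 and 66.3 CPM in DS38, so that the DS38 values lay inside or just below the DMSO range. Its log2 difference of -0.05 did not pass (edgeR adjusted p = 0.421), and the 95% interval ran from -9.01% to 3.10%. Gclm (ENSMUSG00000028124) stood at 60.7, 68.2, 62.6 and 63.3 CPM in DMSO and at 72.9, 68.1, 69.3 and 68.0 CPM in DS38, where DMSO replicate 2 reached the level of the lower DS38 libraries. It rose by 0.13 ± 0.046 SE on the log2 scale (edgeR adjusted p = 0.0346).

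The Gclm call was the least stable of the 5. It was lost under 12 of the 19 settings, among them a correction for gene length (adjusted p = 0.0701) and the DESeq2 test (0.0776), with adjusted p-values from 0.00399 to 0.25 and the log2 fold change always between 0.08 and 0.19. Leaving out any 1 library ended it except DMSO replicate 2 or DS38 replicate 4, and leaving out both libraries numbered 1 gave the highest p. Exons of Gclm overlap those of Gm17494 on the other strand, which had 618 counts in all, and those of Gm6061 on the same strand, which had 0.

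The ratio of the 2 subunits within a library does not depend on how libraries are scaled. Gclc per Gclm, in counts per base, was 1.81, 1.79, 1.80 and 1.83 in DMSO and 1.56, 1.65, 1.57 and 1.63 in DS38. The DS38 ratios were all lower, by 11.3% on average, from 1.81 ± 0.0186 to 1.60 ± 0.0447 (SD, n = 4 each). Leaving out each library in turn kept this between -12.2% and -10.4%. This pair, like Gsr with Txnrd1 and Nfe2l2 with Keap1, was set up after the gene levels were known, so the ratios are a description with no test. In each pair the first gene is the shorter, as Gclc with 3766 bases against Gclm with 6291. The ratios were not corrected for the trend with gene length, and its part in them was not tested.

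**Figure D2:**
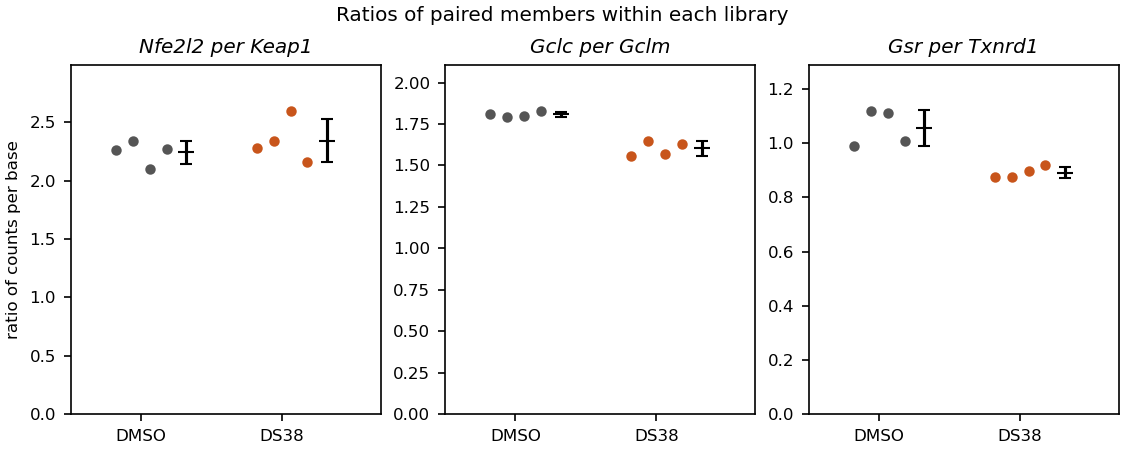
Ratio of counts per base between paired members within each library (vertical axes, from 0), for DMSO (grey) and DS38 (orange), with the group mean and SD. Gclc per Gclm and Gsr per Txnrd1 are lower in every DS38 library than in any DMSO library, and Nfe2l2 per Keap1 overlaps.

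Gsr, which encodes glutathione reductase and regenerates reduced glutathione with NADPH, was the member that fell. Gsr (ENSMUSG00000031584) stood at 119, 129, 131 and 118 CPM in DMSO and at 106, 101, 105 and 113 CPM in DS38, with no overlap. The log2 fold change was -0.23 ± 0.047 SE, a change of -14.4% with a 95% interval from -20.1% to -8.43% (edgeR adjusted p = 8.98e-04). It passed in all 19 alternative settings, with log2 fold changes from -0.25 to -0.16.

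Txnrd1, cytosolic thioredoxin reductase, is the matching NADPH-dependent enzyme of the thioredoxin branch. Txnrd1 (ENSMUSG00000020250) was the member with the most counts, at 310, 296, 303 and 299 CPM in DMSO and 312, 296, 302 and 317 CPM in DS38. The ranges overlapped almost fully. Its log2 difference was 0.02 (edgeR adjusted p = 0.682), and the 95% interval of -3.92% to 7.25% was the narrowest of the members. The difference took the other sign, at -0.0074 on the log2 scale, when the trend with gene length was removed. Gsr per Txnrd1, in counts per base, was 0.989, 1.12, 1.11 and 1.01 in DMSO and 0.875, 0.877, 0.896 and 0.92 in DS38, which is -15.8% on average with no overlap.

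Srxn1, sulfiredoxin, repairs over-oxidised peroxiredoxins and is a widely used Nrf2 target. Srxn1 (ENSMUSG00000032802) stood at 13.2, 12.8, 14.0 and 14.8 CPM in DMSO and at 12.8, 13.8, 15.9 and 14.5 CPM in DS38. The groups overlapped, and the log2 difference of 0.05 did not pass (edgeR adjusted p = 0.628, 95% interval -7.68% to 16.7%).

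Me1, cytosolic malic enzyme, makes NADPH from malate and had the largest change of the tested members. Me1 (ENSMUSG00000032418) stood at 10.4, 10.4, 11.7 and 8.27 CPM in DMSO and at 12.5, 13.4, 13.1 and 14.9 CPM in DS38, with every DS38 library above every DMSO library. The log2 fold change was 0.40 ± 0.096 SE, a rise of 32.1% with a 95% interval from 14.9% to 52.0% (edgeR adjusted p = 0.00282), and it passed in all 19 alternative settings.

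Hmox1, the inducible haem oxygenase, breaks down haem and responds strongly to many stresses. Hmox1 (ENSMUSG00000005413) stood at 17.5, 17.3, 18.3 and 14.6 CPM in DMSO and at 20.6, 21.0, 18.7 and 17.8 CPM in DS38. DS38 replicate 4 lay within the DMSO range and the other 3 above it. The rise of 0.21 ± 0.078 SE on the log2 scale passed (edgeR adjusted p = 0.0399), but not without DMSO replicate 2 (0.0647), DMSO replicate 4 (0.144), DS38 replicate 1 (0.0903), DS38 replicate 2 (0.143) or both libraries numbered 1 (0.0859), nor in DESeq2 (0.0871). Over the 19 settings its adjusted p ran from 0.00429 to 0.144. Macrophages are a cell type rich in Hmox1. Their marker levels are given above with those of other cell types, and the part of any cell type in the Hmox1 values was not tested.

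Nqo1 encodes a quinone reductase and is a classic Nrf2 target, but in MB21 cells it was barely detected. Nqo1 (ENSMUSG00000003849) had 2, 3, 5 and 2 counts in the DMSO libraries and 10, 12, 3 and 8 in the DS38 libraries, and fell under the filter. DS38 replicate 3 lay within the DMSO range and the other 3 above it. The means were 0.146 ± 0.0863 CPM in DMSO and 0.355 ± 0.122 CPM in DS38 (SD, n = 4 each). The summed 33 counts in DS38 against 12 in DMSO gave a ratio of 2.75 relative to the library totals, without TMM factors, with an exact 95% interval of 1.39 to 5.85 that covers counting error only. With no filter the log2 fold change was 1.33 and did not pass (edgeR adjusted p = 0.0673), nor did it pass in DESeq2 (adjusted p = 0.140). Weakly expressed genes had more counts in DS38 in general: genes under the filter took 0.096% to 0.114% of counts in DMSO and 0.133% to 0.147% in DS38. Of 3597 such genes with 20 to 100 counts in all, 68.1% had the higher mean in DS38. Whether the Nqo1 counts belong to that shift was not tested.

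**Figure D3:**
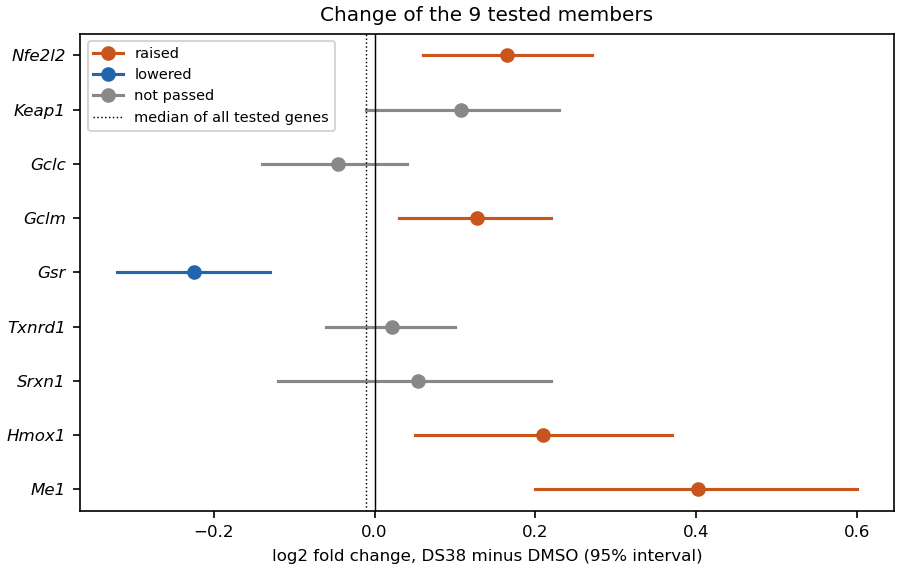
Log2 fold change of DS38 minus DMSO with its 95% interval (horizontal axis) for the 9 tested members, coloured by the edgeR call, with the median of all 15133 tested genes as a dotted line. Me1 reaches 0.40 and Gsr -0.23, and the 4 grey intervals of Keap1, Gclc, Txnrd1 and Srxn1 include 0.

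**Figure D4:**
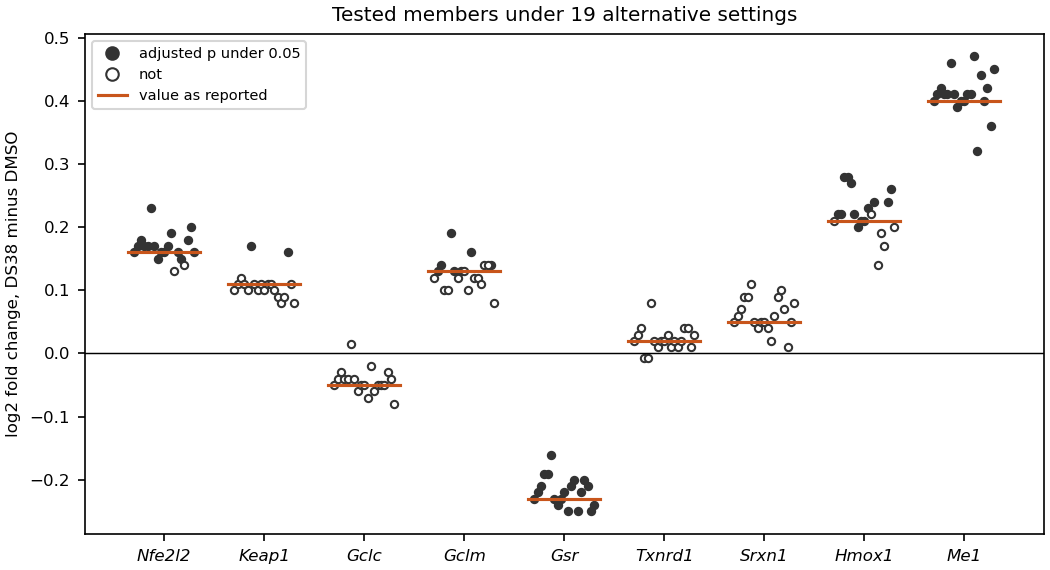
Log2 fold change of the 9 tested members (vertical axis) under 19 alternative settings, filled where the adjusted p was under 0.05, with the reported value as an orange line. Gsr and Me1 are filled in all 19, while Gclm is filled in 7 and Hmox1 in 13.

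The other genes of the pathway were followed through 8 lists with 122 genes, of which 98 passed the filter. Of these 98, 30 rose, where 18.8% of all tested genes did, 22 fell, where 20.7% did, and 46 did not pass. Their median log2 fold change was -0.01, the same as for all genes. The lists include 7 genes that also belong to a list of 26 targets of Atf4, the transcription factor of the amino acid response. All 7 fell, as did 25 of the 26. Leaving out 7 falls can only lower the number of falls, so the rest is a description. Of the other 91 genes 30 rose, where 18.8% of all tested genes did, and 15 fell, where 20.7% did. Their log2 fold changes ran from -0.69 to 1.65. Scaling libraries by their totals alone moved the 98 genes to 34 rises and 13 falls, and the share of rises among all changed genes of the table from 47.5% to 64.3%.

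Of 13 genes that regulate or partner Nrf2, 7 rose, against 18.8% of all genes, 1 fell, against 20.7%, and 5 did not pass (median log2 fold change 0.17). Sqstm1, an autophagy receptor that binds Keap1 and is itself an Nrf2 target, rose from 130, 131, 127 and 124 CPM in DMSO to 170, 170, 168 and 170 CPM in DS38. Its 4 DS38 values were almost equal and far above DMSO (log2 fold change 0.40 ± 0.037 SE, edgeR adjusted p = 1.16e-07). Cul3, the scaffold of the ligase that degrades Nrf2, rose too (log2 fold change 0.18, adjusted p = 0.00197), as did Btrc (0.24, adjusted p = 0.00152), which serves a second route of Nrf2 degradation. The Btrc call was lost after the correction for gene length (0.14, adjusted p = 0.0536). Bach1, which competes with Nrf2 for its sites and holds Hmox1 down, rose by 0.15 on the log2 scale (adjusted p = 0.0111), a call lost without both libraries numbered 1 (0.0614). Mafg, a small Maf partner, fell (log2 fold change -0.17, adjusted p = 0.00621), which was lost under scaling by totals (0.0673). The relative Nfe2l3 rose by 1.65 on the log2 scale (adjusted p = 4.44e-04), at levels of only 0.361 ± 0.167 and 1.16 ± 0.221 CPM. Nfe2l2 per Keap1, in counts per base, overlapped between DMSO (2.10 to 2.34) and DS38 (2.16 to 2.60).

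The lowest log2 fold changes of the wider lists were in the supply of cysteine, the limiting amino acid of glutathione, and in glutathione breakdown. Slc7a11, the cystine importer and both an Nrf2 and an Atf4 target, went from 10.5, 10.7, 12.1 and 11.4 CPM in DMSO to 1.80, 2.10, 2.07 and 1.77 CPM in DS38 (log2 fold change -2.52, edgeR adjusted p = 8.88e-12). Its partner chain Slc3a2 stood at 315, 347, 330 and 311 CPM in DMSO and at 153, 153, 147 and 142 CPM in DS38 (log2 fold change -1.13). Cth, which makes cysteine from cystathionine, fell from 68.3 ± 3.96 to 14.3 ± 0.922 CPM, and Chac1, which degrades glutathione, from 29.2 ± 2.90 to 3.73 ± 0.316 CPM. The ligase of the second step, Gss, stood at 16.1 ± 1.60 and 15.0 ± 0.956 CPM and did not pass (log2 difference -0.10, adjusted p = 0.321). Of the 10 genes of this list tested, 5 fell, against 20.7% of all genes, 1 rose, against 18.8%, and 4 did not pass (median log2 fold change -0.36), and 4 of the 5 falls are on the Atf4 list.

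Of 28 genes of glutathione peroxidases and transferases, 14 passed the filter, and 2 rose, 3 fell and 9 did not pass (median log2 fold change 0.00). Both counts were near the shares over all genes, 18.8% raised and 20.7% lowered. Gpx4, the peroxidase that repairs lipid peroxides, fell from 131, 126, 109 and 109 CPM in DMSO to 83.5, 96.7, 87.8 and 101 CPM in DS38, with no overlap (log2 fold change -0.37 ± 0.077 SE, edgeR adjusted p = 0.00334). Gstz1, which also serves tyrosine breakdown, fell as well (-0.43, adjusted p = 5.38e-06). The microsomal transferase Mgst3 (0.75, adjusted p = 6.09e-04) and Gsta4, which clears lipid peroxidation products (0.43, adjusted p = 0.00385), rose from 3.17 ± 0.700 and 5.47 ± 0.423 CPM. Transferase genes have close relatives, so reads that match several of them make single values uncertain.

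In the thioredoxin, peroxiredoxin and glutaredoxin list of 19 genes, 5 rose, 3 fell and 11 did not pass (median log2 fold change -0.06), again close to the 18.8% and 20.7% over all genes. Txn2, mitochondrial thioredoxin, fell (log2 fold change -0.34, edgeR adjusted p = 9.33e-05). Cytosolic Txn1 stood at 150 ± 9.10 and 163 ± 9.02 CPM and did not pass (0.11, adjusted p = 0.0784), but its call depended on the setting. It passed after the correction for gene length (0.23, adjusted p = 3.59e-04), under library totals (0.00678), with the stricter filter (0.0445), and without DMSO replicate 1 (0.0401), DS38 replicate 1 (0.0164) or both (0.00715). Prdx1, an abundant peroxiredoxin and Nrf2 target, stood at 461 ± 9.46 and 465 ± 32.7 CPM (adjusted p = 0.862, 95% interval -5.75% to 7.88%). The sestrins, stress proteins that restrain mTORC1, were split: Sesn1 (0.23) and Sesn3 (0.25) rose, and Sesn2, an Atf4 target, fell (-0.96, adjusted p = 7.42e-11). Among the genes that remove superoxide and peroxide, catalase rose (Cat, 0.24, adjusted p = 1.37e-04) and the cytosolic dismutase fell (Sod1, -0.27, adjusted p = 0.00188). The mitochondrial dismutase Sod2 (-0.08, adjusted p = 0.106) and the copper chaperone Ccs (-0.07, adjusted p = 0.457) did not pass, though Sod2 passed after the correction for gene length (-0.13, adjusted p = 0.0126).

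NADPH is consumed by both Gsr and Txnrd1. Of 14 tested genes of its supply 4 rose, against 18.8% of all genes, 6 fell, against 20.7%, and 4 did not pass. In the pentose phosphate pathway Pgd rose (log2 fold change 0.35, edgeR adjusted p = 2.50e-06) and G6pdx rose (0.15, adjusted p = 0.020; 0.0893 when DMSO replicate 2 was left out), while Pgls between them fell (-0.28, adjusted p = 0.00682). The mitochondrial folate enzymes Aldh1l2, from 215 ± 14.5 to 48.8 ± 6.74 CPM, and Mthfd2, from 345 ± 24.7 to 131 ± 4.33 CPM, fell most, and both are Atf4 targets. In the list on haem and iron 5 of 10 tested genes rose, against 18.8% of all genes, 2 fell, against 20.7%, and 3 did not pass. The transferrin receptor gene Tfrc rose from 124, 130, 124 and 116 CPM in DMSO to 168, 175, 177 and 187 CPM in DS38 (0.52 ± 0.044 SE, adjusted p = 4.96e-08). The biliverdin reductase gene Blvrb (0.29), the haem transporter gene Slc48a1 (0.16) and the iron sensor gene Ireb2 (0.14) rose. The ferritin light chain gene Ftl1 rose as well (0.20, adjusted p = 0.0334). The 2 that fell were Blvra, also a biliverdin reductase gene (-0.23, adjusted p = 0.0243), and the haem oxygenase gene Hmox2 (-0.19, adjusted p = 0.0317). The Slc48a1 call was lost with no filter on low counts (adjusted p = 0.0521) and without DS38 replicate 1 (0.0525) or both libraries numbered 1 (0.0571). The ferritin heavy chain gene Fth1 did not pass (0.05, adjusted p = 0.358), although it did when libraries were scaled by totals (0.0341).

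Of the detoxification and export targets, 5 of 14 tested genes rose, against 18.8% of all genes, 1 fell, against 20.7%, and 8 did not pass (median log2 fold change 0.20). Ptgr1, which reduces reactive alkenals and prostaglandins, rose from 14.1 ± 0.696 to 19.4 ± 1.69 CPM (log2 fold change 0.46, edgeR adjusted p = 8.19e-05). Akr1b8, an aldo-keto reductase gene (0.48, adjusted p = 0.0121), the exporter gene Abcc4 (0.25, adjusted p = 0.00522) and Ugdh, which makes the sugar for glucuronidation (0.15, adjusted p = 0.0112), rose as well. The Abcc4 call was lost without both libraries numbered 1 (0.0591), and that of Ugdh with no filter on low counts (0.0641). The largest rise of the list was that of Trim16 (1.02, edgeR adjusted p = 0.0135), on 38 counts in DMSO and 81 in DS38. Pir was the gene that fell (-0.69, edgeR adjusted p = 0.0445), on 88 and 57 counts. The groups overlapped for both.

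**Figure D5:**
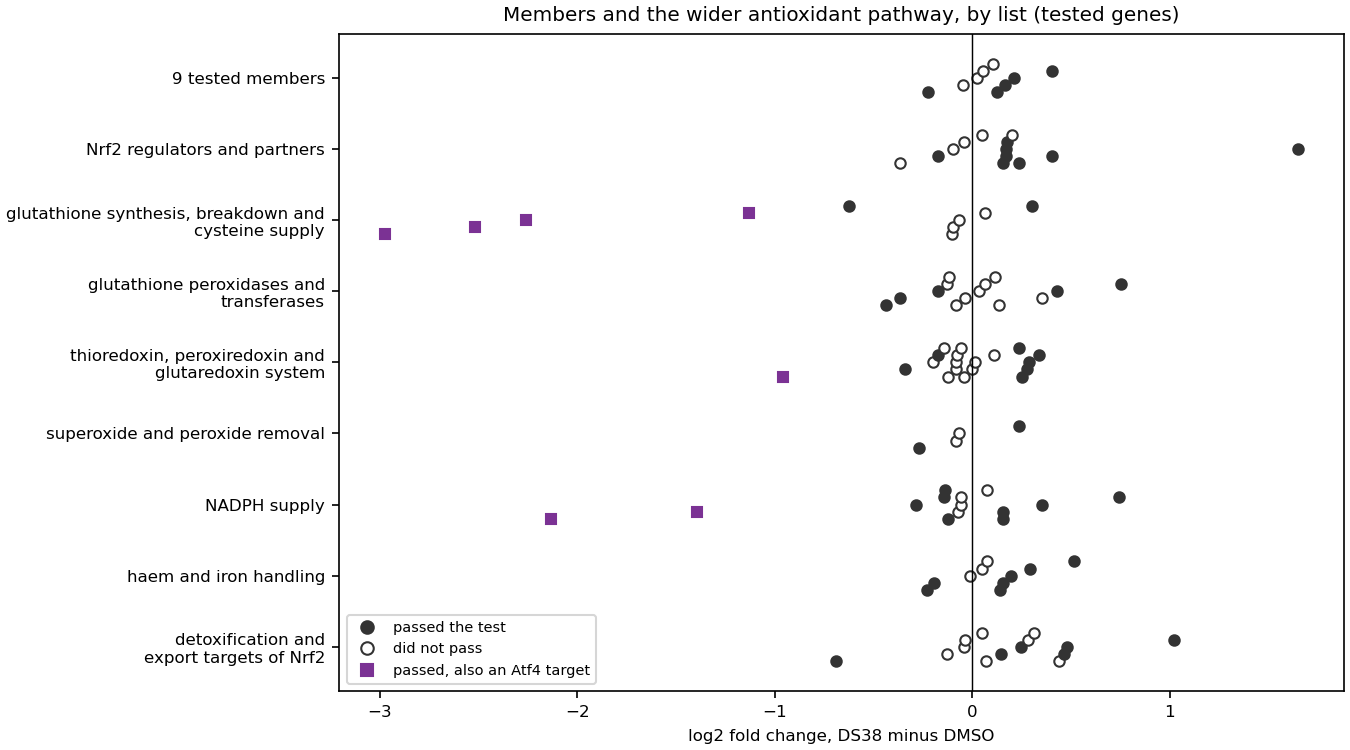
Log2 fold change of DS38 minus DMSO (horizontal axis) for the 9 tested members and the tested genes of 8 wider lists (rows), filled where the edgeR test was passed. The members lie between -0.23 and 0.40, and the 7 purple squares, genes also on the Atf4 list, lie between -2.97 and -0.96.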

How the data were processed

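RNA of 8 MB21 samples, 4 with DMSO and 4 with DS-1-38, was sequenced from mRNA libraries. The authors deposited whole-number counts per gene, not normalized, with gene lengths, 1 column per library. Per the submitters' processing notes, the tools were edgeR, R 4.1.0, Subread 2.0.3 with featureCounts, and STAR 2.7.9a, and the notes list 2 builds, GRCh38.p13 and GRCm39, with no roles. How strand and reads matching several places were handled is not given in the sources used.

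Of 55416 identifiers, 52083 matched a symbol, and all 192 list entries were found. Counts were tested with edgeR 4.0.16 (R 4.3.3, robust quasi-likelihood test, TMM factors, filterByExpr with a minimum of 10 counts), with Benjamini-Hochberg adjustment over 15133 genes and a threshold of 0.05. Standard errors were derived from the F statistic of each gene. The script was tested on simulated counts. Alternatives were DESeq2 1.42.0 (Wald test, or its size factors in edgeR), limma-voom (limma 3.58.1), scaling by library totals, a fit that was not robust, other filters, a gene length correction, the replicate number as a block, and libraries left out. CPM per kilobase uses the deposited lengths. Promoter sequences are RefSeq's, and no coordinates of the authors' build are given.

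The members and lists were chosen with earlier results of these data known. Named genes were all 10 members, up to 4 genes with the smallest p in each wider list, and Slc7a11, Gss, Gpx4, Txn1, Prdx1, Sqstm1, Bach1, Mafg, G6pdx, Fth1 and Gli1. Aqp4, Barhl1, Cdh5, Cldn5, Cnp, Col1a1, Col1a2, Dcn, Gfap, Kdr, Lum, Pdgfrb, Pecam1, Slc1a3, Tek and Zic1 are named from the marker lists. These and the macrophage marker genes without counts were named after their values were seen. So were Blvra, Ftl1 and Hmox2 from the list on haem and iron, and Pir and Trim16 from the detoxification list. The same holds for Gm6061, Gm16754 and Gm17494, which overlap members in a GENCODE annotation that may differ from the authors' annotation.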

Additional observations from a re-analysis of the deposited data

Results flagged for a closer look

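In 5 of 106 groups of 4 libraries, 1 library stood apart from the other 3 beyond Dixon's 95% critical value, about the 1 in 20 that chance gives. For Nqo1 the lowest DS38 library lay at 0.173 CPM, which is 3 counts, and the other 3 at 0.413 to 0.419 CPM. For Sqstm1 the lowest DS38 library lay at 168 CPM, against 170 CPM in the other 3. For Sod2 the lowest DMSO library lay at 129 CPM, for Gss the highest DMSO library at 18.5 CPM and for Gli1 the lowest DS38 library at 85.5 CPM.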

How the results depend on the processing

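Of the 10 members, 9 could be tested under 19 alternatives. Gsr, Me1 and Srxn1 kept their direction and their side of the threshold in all 19, Nfe2l2 and Keap1 in 17 and Hmox1 in 13. Of the values that had not passed, these changed sign: Gclc when libraries were scaled by totals (0.015) and Txnrd1 with the length correction (-0.0074, and -0.0077 with the replicate block too). So did Prdx1 without DS38 replicate 4, where leaving out 1 library gave -0.026 to 0.05. The members raised, 4 as reported, numbered 2 in the DESeq2 test, 2 without both libraries numbered 1, and 1 to 4 when leaving out 1 library; 1 member was lowered in every setting. Of wider pathway genes, 13 were lowered under library totals, against 22; leaving out 1 library gave 17 to 24 lowered and 25 to 30 raised. The 40 other named genes kept direction and side in 736 of 759 values. With the replicate block 3 members rose and 1 fell, since Gclm no longer passed (adjusted p = 0.0727), and 2546 genes rose and 3048 fell in the table; libraries of the same number did not deviate together in every pair (correlations of deviations -0.0816 to 0.331), so the numbers were not taken as pairs. The block together with the length correction ended the calls of Ireb2 (adjusted p = 0.0676), Ugdh (0.052) and Btrc (0.0707), while Txn1 (3.3e-04) and Sod2 (0.0302) passed. Of the 4 libraries numbered alike, only those numbered 1 correlated best with each other. Leaving out single libraries for the ratios of paired members was chosen after seeing the data, and moved Nfe2l2 per Keap1 between 0.949% and 7.55%. Depth limits Nqo1: the log2 ratio of its mean counts per library total, without TMM factors, was 1.34 and ran from 1.14 to 1.83 when leaving out 1 library.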
